A study of Mus musculus with 6 samples.

Results

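The STEAP reductases and the core iron-handling genes were 10 of the 29595 genes in the expression table: Steap1, Steap2, Steap3, Steap4, Tfrc, Slc11a2, Slc40a1, Fth1, Ftl1 and Hamp, each found by its symbol. They were chosen by pathway with the result of the same comparison already known, so their differences between groups are given as a description, with no p-value, and whether a member was among the genes called in the whole table is stated only as a count. RNA was sequenced from TKPTS cells, a mouse kidney proximal tubule line, transfected with plasmid. The Hnf3a group (3 libraries) received pcDNA3.1-Hnf3a-Flag, which expresses Flag-tagged HNF3α (FOXA1), and the pcDNA group (3 libraries) received the empty pcDNA3.1-Flag plasmid. RNA was collected 24 h after transfection, so the overexpression was transient, and both groups carried a plasmid backbone. The comparison asks how these genes differed when HNF3α was overexpressed, and all 10 passed the filter on low counts (17824 of 29595 genes did). Steap3 and Hamp passed it with few counts.

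Iron has to be reduced on its way into the cytosol, since the importers carry ferrous and not ferric iron. Transferrin enters through the transferrin receptor, its ferric iron is reduced in the endosome by a STEAP protein, and DMT1 (Slc11a2) moves the product across the membrane. The STEAP proteins pass electrons from NADPH through FAD and haem, and those with the NADPH-binding domain also reduce copper. Iron that is not used is kept in ferritin, a shell of heavy and light chains, or leaves through ferroportin (Slc40a1), which the hormone hepcidin (Hamp) removes from the surface. In the kidney, proximal tubule cells take up filtered iron and store it. Iron regulatory proteins set much of this system without changing transcription, by binding hairpins in the messenger RNAs, where they block translation from the 5′ end or protect the message at the 3′ end.

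Those hairpins are shown because RNA is all that was measured. Those at the 5′ end mark members of which the protein can be set apart from the amount of RNA. Those at the 3′ end bear on the amount of RNA itself. GENCODE vM21 transcripts were searched for an unpaired c, a stem of 5 base pairs with G-T pairs allowed and the loop CAGTGN whose last base is not G. Of 21901 coding genes, 123 (0.562%) held a match, and 4 of the 10 members did, with 7 windows in all. Each window is printed 5′ to 3′ on the strand of the gene, as DNA in build GRCm38, with the unpaired c and the loop in capitals.
Fth1, 5′ UTR, chr19:9982733-9982759, plus strand: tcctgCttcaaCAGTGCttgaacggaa
Ftl1, 5′ UTR, chr7:45459780-45459806, minus strand: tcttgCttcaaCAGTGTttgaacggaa
Slc40a1, 5′ UTR, chr1:45925466-45925492, minus strand: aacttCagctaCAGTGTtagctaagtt
Tfrc, 3′ UTR, chr16:32631220-32631246, plus strand: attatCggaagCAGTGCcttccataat
Tfrc, 3′ UTR, chr16:32631599-32631625, plus strand: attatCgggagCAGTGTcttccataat
Tfrc, 3′ UTR, chr16:32631664-32631690, plus strand: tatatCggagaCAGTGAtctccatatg
Tfrc, 3′ UTR, chr16:32631711-32631737, plus strand: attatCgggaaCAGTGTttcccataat
Fth1 and Ftl1 shared the whole stem, while the Tfrc windows lay together at the other end of the message. A match of letters is a description and not a measured binding site. A member without one had no match to this full pattern in the untranslated regions searched. Hairpins with a looser stem or loop were not searched for, so their absence is not shown.

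Total depth was between 60473818 and 71154667 estimated counts per library, and 1 sequenced fragment was worth up to about 4 counts, so 12 counts (about 3 fragments) were taken as the floor of detection. The floor covers counting error only. The transfected gene, Foxa1, had 80803, 77904 and 69508 counts in Hnf3a replicates 1 to 3, the plasmid's own message included where it matches the gene, and 2134, 2330 and 2416 counts in pcDNA replicates 1 to 3. Values of 3 libraries are given in this order throughout. All 6 epithelial markers (Epcam, Cdh1, Krt8, Krt18, Pax8 and Cdh16) were above the floor in every library, with summed levels of 1740 to 1791 CPM (counts scaled to the library total) in Hnf3a and 1650 to 1670 CPM in pcDNA. Of 8 proximal tubule markers 6 were analysed here, and they summed to 5.23 to 6.81 CPM in Hnf3a and 4.60 to 5.42 CPM in pcDNA. In each library 4 or 5 of the 6 were above the floor, led by Aqp1 with 162 to 235 counts, while Slc5a2 had at most 3. Hnf3a libraries 2 and 3 stood apart from the others in marker genes of other cell types, and the source of those counts was not tested. Fibroblast markers summed to 63.9 and 80.8 CPM in them against 1.43 CPM in Hnf3a library 1 and 0.331 to 0.942 CPM in pcDNA, with all 6 of the list above the floor in libraries 2 and 3, 3 in Hnf3a library 1 and 0 to 2 in pcDNA. C1qa, a macrophage gene, had 27 counts in each of the pair and 0 in the other 4. Member values from Hnf3a library 1 alone against the pcDNA libraries are given beside the results.

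The 4 STEAP genes were present at very different levels. In FPKM (fragments per kilobase of transcript, scaled to library size), which allows genes to be compared, Steap1 averaged 43.7 ± 3.65 (SD, n = 3) in the pcDNA libraries, Steap2 15.8 ± 0.339, Steap4 3.25 ± 0.267 and Steap3 0.0359 ± 0.0106. Most of the STEAP message was Steap1, which lacks the NADPH-binding domain of its relatives, and Steap2. Steap1, Steap2 and Steap4 lie on chromosome 5. Steap2 (chr5:5664829-5694578, minus strand) and Steap1 (chr5:5736317-5749326, minus strand) are 41738 bases apart, and Steap4 (chr5:7960457-7982213, plus strand) lies 2211130 bases beyond Steap1. Steap3 is on chromosome 1 (chr1:120190757-120271082, minus strand).

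Steap4, a reductase of ferric iron and copper known as a target of inflammatory signals, showed the largest difference of the 8 members that were above the floor in every library. It was measured at 0.977, 0.947 and 0.955 FPKM in the Hnf3a libraries and at 3.03, 3.54 and 3.16 FPKM in the pcDNA libraries. Every Hnf3a library lay below every pcDNA library, and the Hnf3a values were nearly equal to each other. The fitted log2 fold change was -1.77 (SE 0.109, edgeR), which is 3.40-fold lower with HNF3α. In size it exceeded the fold changes of 99.1% of the genes tested. With only Hnf3a library 1 against the pcDNA libraries it was -1.73, and it lay between -1.81 and -1.70 when any 1 library was left out.

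Steap1 and Steap2, close neighbours, had smaller fold changes. Steap1 stood at 40.9, 39.9 and 41.0 FPKM with HNF3α and at 39.5, 45.9 and 45.6 FPKM with the empty plasmid. The Hnf3a values lay inside the pcDNA range, and the log2 fold change was -0.11 (SE 0.054), or -0.09 with Hnf3a library 1 alone. Steap2, which reduces iron and copper in the endosomal pathway, had 15.4, 15.2 and 14.5 FPKM in Hnf3a and 15.4, 16.02 and 16.01 FPKM in pcDNA. The groups just missed overlapping, with a log2 fold change of -0.08 (SE 0.034), or -0.04 with Hnf3a library 1 alone.

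Steap3, the endosomal reductase of developing red cells, was close to the floor in every library. Its counts were 4, 27 and 4 in Hnf3a and 10, 20 and 16 in pcDNA. The groups overlapped, 2 of 3 Hnf3a libraries and 1 of 3 pcDNA libraries had no more than 12 counts, and no fold is given. Only 1 or a few fragments stand behind each of these values, and a difference was not detectable at this depth.

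Summed over the family, the STEAP level was 57.3, 56.2 and 56.5 FPKM in Hnf3a and 57.9, 65.5 and 64.8 FPKM in pcDNA. Steap1 and Steap2 made up most of it. Steap4 contributed 1.69% ± 0.00962 (SD, n = 3) of the family in Hnf3a and 5.17% ± 0.272 in pcDNA. The summed level and the Steap1 share did not overlap between groups either, with Steap1 at 71.7% ± 0.782 of the family in Hnf3a and 69.5% ± 1.24 in pcDNA. In FPKM the means of Steap1 were further apart (40.6 and 43.7) than those of Steap4 (0.960 and 3.25), within a wider spread. The ratio of Steap1 to Steap2 was 2.70 ± 0.107 with HNF3α and 2.76 ± 0.174 without it, with overlapping libraries.

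**Figure D1:**
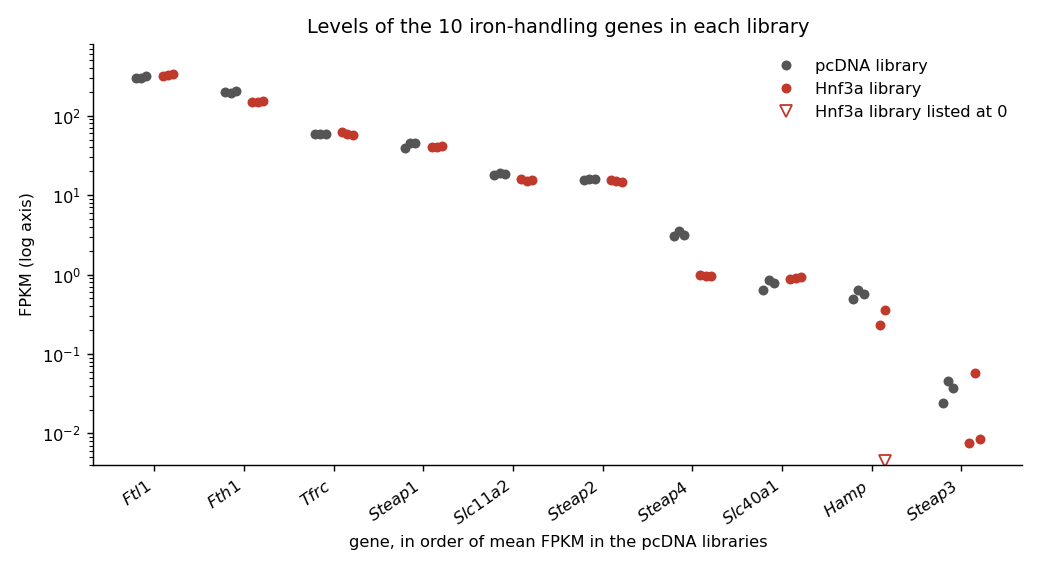
FPKM of the 10 genes (y axis, logarithmic) in each of the 6 libraries, ordered along the x axis by their mean in the pcDNA libraries; grey points are pcDNA libraries, red points Hnf3a libraries, and the open triangle marks the Hnf3a library in which Hamp is listed at 0. The genes span from Ftl1 at about 300 FPKM to Steap3 below 0.1 FPKM, and Steap4 is the member whose groups separate most clearly on this scale.

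The promoter of Steap4 is printed because this gene differed most, and because the transfected factor binds DNA. It is the RefSeq window in GRCm38.p6 from 250 bases before to 50 bases after the annotated start, chr5:7960222-7960521, plus strand, with matches to the kappa-B consensus in capitals.
Steap4 promoter: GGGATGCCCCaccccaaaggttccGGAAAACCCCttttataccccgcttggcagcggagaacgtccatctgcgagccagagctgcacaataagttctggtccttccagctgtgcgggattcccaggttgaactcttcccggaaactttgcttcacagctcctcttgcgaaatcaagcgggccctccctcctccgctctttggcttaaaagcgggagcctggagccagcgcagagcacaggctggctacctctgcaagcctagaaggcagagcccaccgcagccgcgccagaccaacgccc
Both strands were searched. The window held 2 kappa-B matches, starting at positions -250 and -226 from the start site and read on the minus strand, a STAT match (TTCNNNGAA) at -116 and a C/EBP match (TTGCNNAA) at -87. It held no match to the forkhead letters TGTTTAC or TATTTAC. Letters present or absent in this window are a description, and binding of any of these factors was not measured in these RNA data. Of 32851 RefSeq promoters of the same length, 4.51% held a kappa-B match, 8.30% a STAT match, 10.8% a C/EBP match and 6.54% a forkhead match.

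RefSeq windows were at hand for 8 of the 10 members, 15 windows in all, and not for Slc11a2 or Slc40a1. Forkhead letters occurred in 2 of the 15, in a window of Steap3 at -15 and in a window of Steap2 at -165. Kappa-B matches occurred in 4 of the 15, in windows of Steap2, Steap3, Steap4 and Ftl1. STAT matches occurred in 3 of the 15 and C/EBP matches in 3. The hypoxia element core (ACGTG) occurred in 3 and the antioxidant response element (TGACNNNGC) in 1, against 19.6% and 12.4% of all promoters. The windows of Tfrc overlap, and the same hypoxia site was counted in each of them. Of the 2 windows of Fth1, 1 held C/EBP matches alone, at -129 and -58, and the other held no match.

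Slc11a2 and Tfrc stand for iron entry. Slc11a2 (chr15:100387898-100424092, minus strand), the divalent metal transporter of the endosome and the apical membrane, was at 15.9, 15.1 and 15.6 FPKM in Hnf3a and at 17.95, 18.9 and 18.3 FPKM in pcDNA. The groups did not overlap, and the gap between them was wider than the range within either. The log2 fold change was -0.25 (SE 0.036), or 16.05% lower. It was -0.21 with Hnf3a library 1 alone against the pcDNA libraries. Gm5475, annotated on the opposite strand across the start of the gene, had at most 20 counts in any library.

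Tfrc (chr16:32608920-32632794, plus strand), the transferrin receptor and the message with the cluster of 3′ hairpins, was measured at 61.6, 59.5 and 57.3 FPKM in Hnf3a and at 58.5, 59.5 and 59.0 FPKM in pcDNA. The Hnf3a libraries spread to both sides of the pcDNA libraries. The log2 fold change was 0.00 (SE 0.032), and its sign turned with the library left out. With Hnf3a library 1 alone it was 0.06.

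The ferritin chains were the most abundant members. Fth1 (chr19:9980598-9985092, plus strand), the heavy chain that oxidizes iron as it enters the shell, had 150.7, 148.4 and 152.9 FPKM with HNF3α and 200.6, 195.8 and 203.2 FPKM with the empty plasmid. Every Hnf3a library was lower, by a margin wide beside the spread inside either group. The log2 fold change was -0.42 (SE 0.027), or 25.0% lower, and it lay between -0.43 and -0.40 when any 1 library was left out. With Hnf3a library 1 alone it was -0.41. The pseudogenes of Fth1 in the table, Fth-ps2 and Fth-ps3, had at most 8 counts.

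Ftl1 (chr7:45457944-45459884, minus strand), the light chain that favours growth of the iron core, was at 318.1, 327.0 and 339.9 FPKM in Hnf3a and 296.2, 301.8 and 314.8 FPKM in pcDNA. The lowest Hnf3a library lay just above the highest pcDNA library. The log2 fold change was 0.10 (SE 0.033), or 0.06 with Hnf3a library 1 alone. Reads of Ftl1 are shared with near-identical pseudogenes. Ftl2-ps was listed at 293 to 332 FPKM in the Hnf3a libraries, a level close to that of Ftl1 itself, so its own value is uncertain. Summed over Ftl1 and the pseudogenes Ftl1-ps1, Ftl2-ps and Ftl1-ps2, the level was 725 ± 35.5 FPKM in Hnf3a and 683 ± 19.99 FPKM in pcDNA (SD, n = 3), and the groups overlapped.

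The ratio of heavy to light chain RNA separated the groups whichever sum was used. Fth1 over Ftl1 was 0.474, 0.454 and 0.450 with HNF3α and 0.677, 0.649 and 0.646 with the empty plasmid. Against the light chain with its pseudogenes it was 0.208 ± 0.00820 and 0.293 ± 0.00529 (SD, n = 3). The libraries of a group lay close together on this ratio, as the plot of ratios shows.

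**Figure D2:**
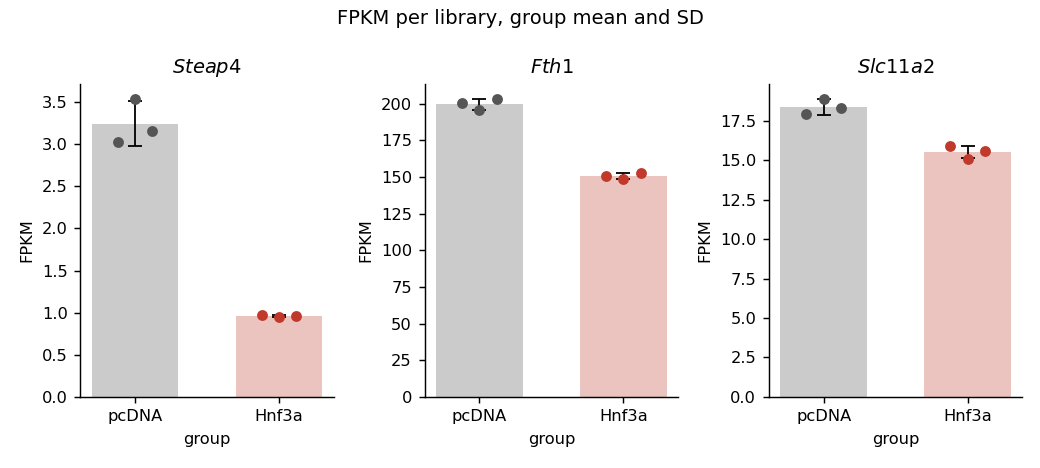
FPKM of Steap4, Fth1 and Slc11a2 (y axes, linear from 0) in the pcDNA and Hnf3a groups; points are libraries, bars are group means and error bars 1 SD (n = 3). In each panel all 3 Hnf3a libraries lie below all 3 pcDNA libraries, with means of 0.960 against 3.25, 150.7 against 199.9 and 15.5 against 18.4 FPKM.

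**Figure D3:**
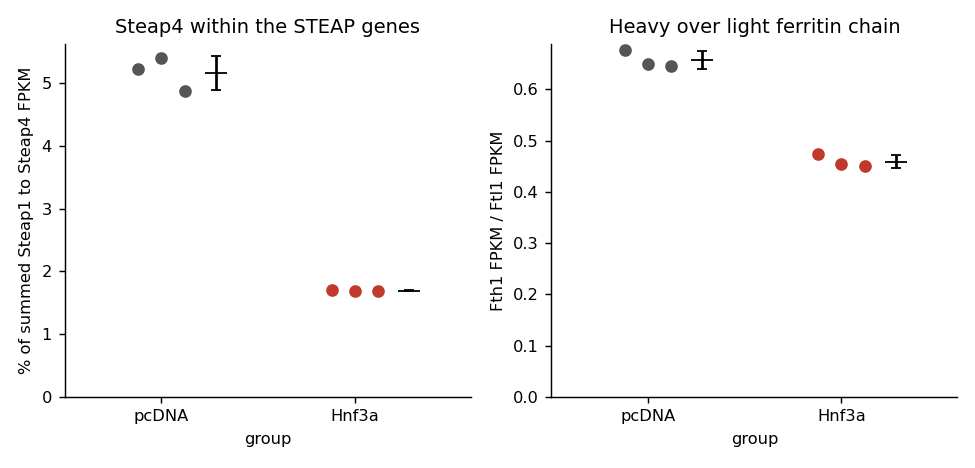
Left, the percentage of the summed Steap1 to Steap4 FPKM found in Steap4; right, the ratio of Fth1 to Ftl1 FPKM, for each library by group. Points are libraries and the black marks beside them the mean with 1 SD (n = 3); the means are 5.17% in pcDNA and 1.69% in Hnf3a on the left, and 0.657 and 0.459 on the right.

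Slc40a1 and Hamp form the exit side and its hormone. Slc40a1 (chr1:45908068-45926523, minus strand), the exporter ferroportin, was at 0.873, 0.897 and 0.934 FPKM in Hnf3a and at 0.645, 0.855 and 0.785 FPKM in pcDNA. The Hnf3a libraries were higher without overlap, but the pcDNA libraries differed among themselves by more than the gap. The log2 fold change was 0.23 (SE 0.113). Macrophages are rich in ferroportin, and the macrophage markers summed to 27.8 CPM in Hnf3a library 1, 34.5 and 37.5 CPM in libraries 2 and 3, and 25.5 to 29.3 CPM in pcDNA, with 2, 7 and 7 of the 8 above the floor in Hnf3a and 3 or 4 in pcDNA. In every library Cd68 (993 to 1178 counts) and Csf1r (554 to 853 counts) had the highest counts of the list and made up most of the sum. Lyz2 had 0, 265 and 273 counts in Hnf3a and 16, 44 and 6 in pcDNA, and Cd163 had at most 4 in any library. Their part in the Slc40a1 values was not tested. In library 1 alone against pcDNA the log2 fold change of Slc40a1 was 0.20. In bulk RNA, fewer cells of a type and less RNA per cell cannot be told apart.

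Hamp (chr7:30942368-30944032, minus strand), which encodes hepcidin and is chiefly a liver gene, had 0, 8 and 11 counts in Hnf3a and 14, 20 and 18 in pcDNA. All Hnf3a libraries were at or under the floor of 12 counts and all pcDNA libraries just above it, a handful of fragments each. The fitted value was -1.52 (SE 0.80) on the log2 scale, which depends on the prior count and is no bound, so no fold is given. Hepatocyte markers summed to 12.1 to 16.7 CPM in Hnf3a and 15.8 to 28.8 CPM in pcDNA, and their part in the Hamp values was not tested. Gm44662 overlaps Hamp on the opposite strand with 12 to 16 counts per library, and its near copy Hamp2 had at most 4.

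**Figure D4:**
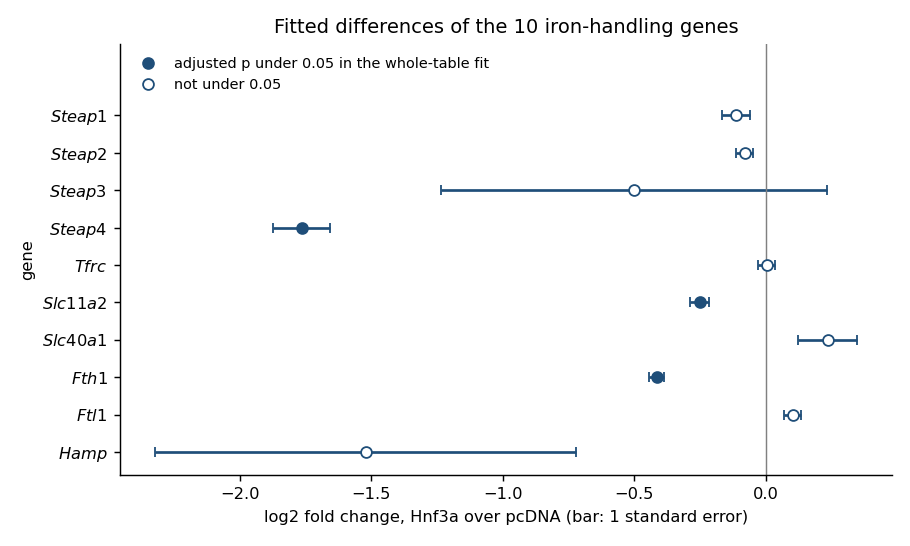
Log2 fold change of Hnf3a over pcDNA (x axis) for each of the 10 genes, with bars of 1 standard error from the whole-table edgeR fit; filled points mark the 3 genes counted among those called in the whole table, as a description. Steap4 at -1.77, Fth1 at -0.42 and Slc11a2 at -0.25 are filled, and the widest bars belong to Hamp and Steap3, the genes with the fewest counts.

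In all, 3 of the 10 members (Steap4, Fth1 and Slc11a2) were among the 565 genes past the adjusted threshold of 0.05 in edgeR's quasi-likelihood test, and all 3 were lower. With Hnf3a library 1 alone against the pcDNA libraries 2 were, without Slc11a2. The share of all tested genes past it was 3.17%, and 2.13% were past it and lower. The CPM values of the groups did not overlap for 7 members, compared with 19.1% of all tested genes. Hamp was among the 7, with every Hnf3a library at or under the floor. Because the members were chosen with this comparison known, nothing is read from these shares. The median log2 fold change was -0.18 over the 10 members and 0.00 over all tested genes. The member median includes Steap3 and Hamp, both lower by fitted value, which rest on too few fragments for any difference to be read. Labels do not say that the libraries came from separate cultures, so p-values measure the spread between these samples, which may be technical.

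By level, the order in the pcDNA libraries was Ftl1, Fth1, Tfrc, Steap1, Slc11a2, Steap2, Steap4, Slc40a1, Hamp and Steap3, and no neighbours in it had overlapping ranges. The same order held for the means of the Hnf3a libraries. There Slc11a2 and Steap2 overlapped, at 15.5 ± 0.395 and 15.0 ± 0.458 FPKM, as did Hamp and Steap3. Steap4, which was 4.26 times the level of Slc40a1 in pcDNA, came down to 1.06 times that level in Hnf3a.

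The genes most like Steap4 over the 6 libraries, by Pearson's r of log2 CPM against 17823 other tested genes, were Anxa6, Mab21l3, Nfkbiz, Cd47 and Slc31a2, with r from 0.9968 to 0.9995. Slc31a2 is a copper transporter of the endosome, Nfkbiz encodes an inducible nuclear regulator of NF-κB, and Cd47 a surface protein that inhibits engulfment. All 5 were lower in Hnf3a, from -1.06 on the log2 scale for Mab21l3 to -0.19 for Anxa6. Since the points are 2 groups of 3 libraries, r mostly records the difference between groups, and 80 genes reached 0.98.

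The other genes of iron and copper metabolism were taken from 8 lists. These were written from pathway knowledge but with earlier results of these data known, so nothing is read from the share of list genes past the threshold. The lists held 82 symbols, of which 78 were in the table and 74 were tested. Of these, 4 were past the threshold and all 4 were lower, or 5.41% beside the 3.17% of all tested genes. A gene of the lists was called higher in 6 of 17 alternatives, Slc22a17, with adjusted p from 0.0158 to 0.0494 in edgeR and DESeq2. The median log2 fold change of the 74 genes was 0.01. None of the 10 tested genes of iron uptake, 5 of ferritin storage and turnover, 3 of the iron regulatory protein system, 10 of hepcidin control, 15 of mitochondrial iron and iron-sulphur clusters or 17 of haem metabolism passed in edgeR. Of those 60 genes, 6 had an unadjusted p under 0.05, and DESeq2 called 1. Ncoa4, which delivers ferritin to autophagy, and Aco1, Ireb2 and Fbxl5, the iron regulatory proteins and their sensor, had log2 fold changes between -0.04 and 0.04.

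3 of the 4 genes belonged to the copper and metallothionein list, of which 12 were tested. Slc31a2, which releases copper from endosomes, was at 10.7, 10.6 and 10.2 FPKM in Hnf3a and 15.4, 15.7 and 15.6 FPKM in pcDNA. The groups were far apart, with a log2 fold change of -0.57 (SE 0.052, edgeR adjusted p 1.94e-05), and Gm23148 is annotated inside the gene on the same strand. Slc31a1, the copper importer of the cell surface and one of the most abundant genes of the list, averaged 19.8 ± 0.493 FPKM in Hnf3a and 20.2 ± 0.505 FPKM in pcDNA, with a log2 fold change of -0.04 (SE 0.036). Cox17, of the same list and chosen after its values were seen, was lower in Hnf3a without overlap (log2 fold change -0.16, SE 0.040). Its edgeR adjusted p was 0.0526, just outside the threshold, and DESeq2 called it.

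Mt1 and Mt2 encode metallothioneins, small proteins that bind zinc and copper and are induced by metals, glucocorticoids and inflammation. Mt2 had 5.79, 7.15 and 7.54 FPKM in Hnf3a and 10.5, 13.3 and 13.6 FPKM in pcDNA, with no overlap, and fell by 0.88 on the log2 scale (SE 0.138, edgeR adjusted p 0.00258). Mt1 had 5.89, 5.65 and 5.11 FPKM in Hnf3a and 8.07, 7.47 and 9.96 FPKM in pcDNA, a log2 fold change of -0.62 (SE 0.116, edgeR adjusted p 0.00843). Mt1 lost the call without Hnf3a library 2 (adjusted p 0.0621) and without pcDNA library 3 (0.0540), while Mt2 and Slc31a2 kept it without any 1 library. With Hnf3a library 1 alone the edgeR adjusted p was 0.198 for Mt1, 0.0211 for Mt2 and 0.00265 for Slc31a2.

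The fourth gene was Cp, which encodes ceruloplasmin, the copper-carrying ferroxidase that works beside ferroportin. It stood at 39.9, 39.0 and 38.7 FPKM in Hnf3a and 41.7, 43.2 and 42.7 FPKM in pcDNA, a small difference without overlap (log2 fold change -0.13, SE 0.029, edgeR adjusted p 0.0287). The call was lost without Hnf3a library 2 or 3 or without any 1 pcDNA library (adjusted p between 0.0660 and 0.188), and with Hnf3a library 1 alone (0.224). Hps3 overlaps it on the opposite strand. The other tested ferroxidase, Hephl1, had at most 14 counts.

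**Figure D5:**
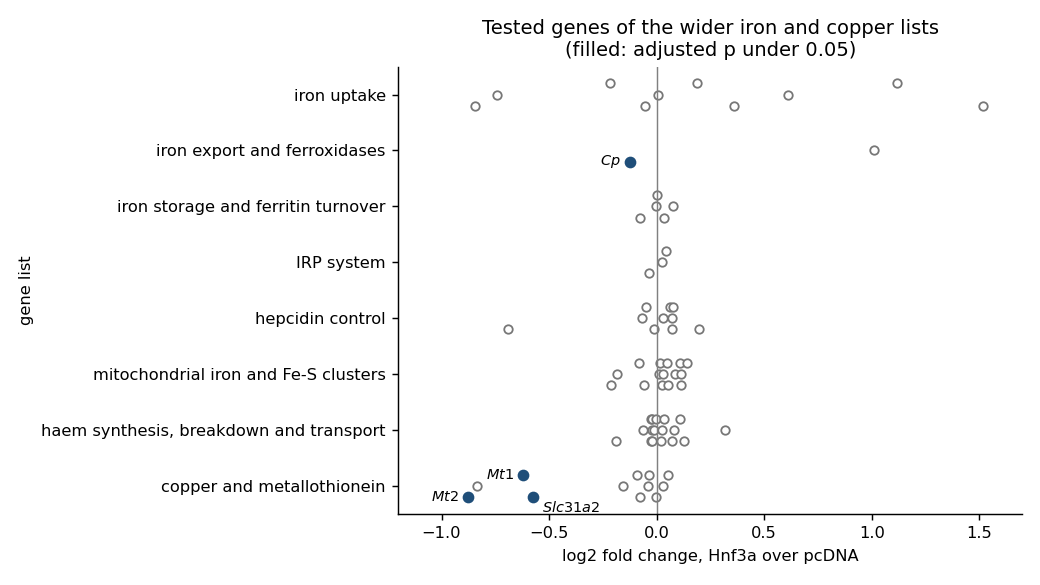
Log2 fold change of Hnf3a over pcDNA (x axis) for the 74 tested genes of the 8 iron and copper lists (rows); filled, labelled points passed the adjusted threshold of 0.05. Cp, Mt1, Mt2 and Slc31a2 are the filled points, all left of 0. The open points of storage and the regulatory proteins lie between -0.08 and 0.08, and those of mitochondria and haem between -0.21 and 0.32.

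The most abundant genes of those lists were measured with little spread. Pcbp1 and Pcbp2, chaperones that load iron into ferritin, averaged 133.7 ± 0.918 and 64.7 ± 1.45 FPKM in Hnf3a and 133.4 ± 3.94 and 62.9 ± 0.817 FPKM in pcDNA. Id1, a target of BMP signalling, averaged 176.7 ± 6.13 and 168.6 ± 7.27 FPKM, and Bmpr1a, a BMP receptor, 12.7 ± 0.777 and 12.01 ± 0.0814 FPKM. Slc25a37, the mitochondrial iron importer, averaged 60.7 ± 1.17 and 62.9 ± 0.741 FPKM, and Cisd1, an iron-sulphur protein of the outer membrane, 27.1 ± 1.98 and 26.7 ± 0.229 FPKM. Alad, an early enzyme of haem synthesis, averaged 31.6 ± 1.296 and 29.2 ± 0.0926 FPKM, Hmox1, which breaks haem down, 29.2 ± 1.61 and 29.3 ± 0.867 FPKM, and Atox1, a copper chaperone, 68.2 ± 1.27 and 66.5 ± 4.09 FPKM. In the uptake list, Frrs1, a ferric reductase, averaged 8.66 ± 0.101 and 8.59 ± 0.230 FPKM, and Slc39a14, a transporter of iron and zinc, 3.99 ± 0.316 and 4.12 ± 0.0735 FPKM. None of these 11 genes was past the threshold.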

How the data were processed

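The deposited table gave, per the file headers, an estimated count and an FPKM value for each gene and library. The authors' processing notes name cutadapt 1.9, HISAT2 2.0.4, UMI-tools and StringTie 1.3.4d with build mm10, and libraries were strand-marked. The use of strand in counting is not given in the sources used here. Replicate numbers came from the labels.

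Genes were filtered with filterByExpr, scaled by TMM and tested two-sided with edgeR 4.0.16 (glmQLFit, robust) in R 4.3.3 on the estimated counts, which were whole. Benjamini-Hochberg adjustment ran over 17824 genes. The SE came from the log2 fold change and its F statistic (size over square root). No pair of libraries matched within sampling noise. DESeq2 1.42.0 and limma 3.58.1 on log2(FPKM + 0.1) were alternatives. Scripts were tested on simulated data. Members, lists and markers were chosen with earlier results of these data known. Genes named were the members, Foxa1, list genes past the threshold, the 2 most abundant tested genes per list, and the 5 genes most like Steap4. Other genes were singled out after their values were seen: Ncoa4, Aco1, Cox17, Slc22a17, Trf and those sharing or overlapping sequence. Fold-change and p-value columns of the authors were not used. No erythroid marker result enters a comparison: the list summed to 3.82 to 5.15 CPM in Hnf3a and 2.16 to 3.59 CPM in pcDNA.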

Additional observations from a re-analysis of the deposited data

How the results depend on the processing

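As counts alone, the members called included Steap4 and Fth1 in all 17 alternatives, Slc11a2 in 16 and Ftl1 in 1, DESeq2. Hamp had a fitted value larger in size than that of Steap4 in 4 of the 15 alternatives in which Hamp was fitted. Steap3 did so without Hnf3a library 2 and with Hnf3a library 1 alone. Without both Hnf3a libraries 2 and 3, where the lone Hnf3a library is assumed to vary like the pcDNA group, 2 members, 2 list genes and 322 genes in all were called. limma on log2(FPKM + a pseudocount) called 245, 236 and 231 genes with 0.01, 0.1 and 1, and 2 list genes with each. An adjusted p under 0.01 left 281 genes. Leaving out 1 library gave 263 (without Hnf3a library 2) to 643 genes (without Hnf3a library 1), 3 members each time and 2 (without Hnf3a library 2) to 5 list genes. Counts fell to 286, 267 and 349 without pcDNA libraries 1, 2 and 3. The log2 fold change of Steap4 was -1.11 with a pseudocount of 1, which understates low genes. Same-numbered libraries did not deviate together (correlations 0.0108, -0.0127 and -0.0158), which gave no sign of pairing. With 3 libraries per group this cannot show that they were prepared apart. With the replicate block 463 genes, 3 members and 5 list genes were called, and Cp was not (adjusted p 0.0654). Of the list genes, Mt2 and Slc31a2 were past the threshold in all 17 alternatives, Mt1 in 11 and Cp in 7. With counts divided by 4, close to the scale of fragments, 8 members passed the filter, without Steap3 and Hamp. Those 2 genes rest on too few fragments for any difference to be read.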

Other observations

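Slc22a17, the receptor for lipocalin 2 with bound iron, was chosen after its values were seen. Counts were 85, 142 and 138 with HNF3α and 35, 53 and 71 with the empty plasmid. The groups did not overlap. The gene had a log2 fold change of 1.12 (SE 0.283) and an edgeR adjusted p of 0.0512, just outside the threshold, and it was called in 6 of 17 alternatives, DESeq2 and the replicate block included. Hnf3a libraries 2 and 3, the ones with more counts of fibroblast and macrophage markers, were the highest. The source of those marker counts and its part in the difference were not tested. Trf, which encodes transferrin, had 580, 733 and 543 counts in Hnf3a and 1090, 1149 and 665 in pcDNA, also without an adjusted p under the threshold (0.199), and its groups overlapped.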
